A study of Mus musculus with 14 samples.

Results

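The Six2 to Six6 genes encode transcription factors with a SIX-type domain and a homeodomain, and 6 genes of these loci were examined in the histone H3 lysine 27 acetylation (H3K27ac) ChIP-Seq of the embryonic day 14 (E14) mouse retina. The members were chosen by name as Six2, Six3, Six3os1, Six4, Six5 and Six6, and their peaks were selected as every peak of the deposited list that overlapped the gene body or the 50 kb on either side of it. This rule took 12 of the 13463 peaks of the list. The peaks themselves define the rule, so their number and values at the members are given as a description, with no test. The study followed the LIM homeodomain factor LHX2 in retinal progenitor cells (RPCs) with ChIP-Seq, ATAC-Seq and RNA-Seq at E14 and postnatal day 2. The sample used here came from CD1 mice at E14, and its labels name retinal cells, with RPCs as the cell type and with no allele or agent of its own given for this sample. Per the methods of the study, chromatin for ChIP was prepared from whole dissected retinas, so cells other than RPCs were not removed. The labels name 2 replicate libraries and 1 isotype control, and the header of the list names a single ChIP alignment, taken here to hold both replicates. The other samples of the series were not analysed here.

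H3K27ac is a mark of active promoters and of active enhancers. SIX-family proteins bind DNA through their SIX-type domain and homeodomain and act with partner proteins, among which EYA proteins are coactivators and TLE proteins are corepressors. In the eye, Six3 is required for forebrain and eye field formation and Six6 for the proliferation of retinal and pituitary progenitors. Six3os1 is a long non-coding RNA transcribed from the strand opposite to Six3. Six2 is known for the maintenance of nephron progenitors, Six4 for roles in muscle and other organ primordia, and Six5 lies next to Dmpk, the gene of the myotonic dystrophy repeat.

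The acetylated loci of the family differed in the length of their peaks. Six3 and Six3os1 shared a single peak of 22347 bp, the second longest of all peaks. Six6 carried a peak of 2395 bp at its transcription start site (TSS) and a longer peak of 4952 bp at its 3′ end. The TSS of Six5 and 1 of the 2 annotated TSS of Six4 lay in peaks of 3157 bp and 1484 bp. No peak was found within 1000 bp of the Six2 TSS, and the nearest peak edge was 41555 bp away from it. A peak was therefore present at the TSS of 5 of 6 members. Of the 5 protein-coding members, 4 had a TSS peak, where 49.8% of all 22367 protein-coding genes had such a peak. Six3os1, the lincRNA member, had a TSS peak, as had 49.5% of 1273 lincRNA genes. Because the members were selected with these peaks in view, nothing was read from this count.

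**Figure D1:**
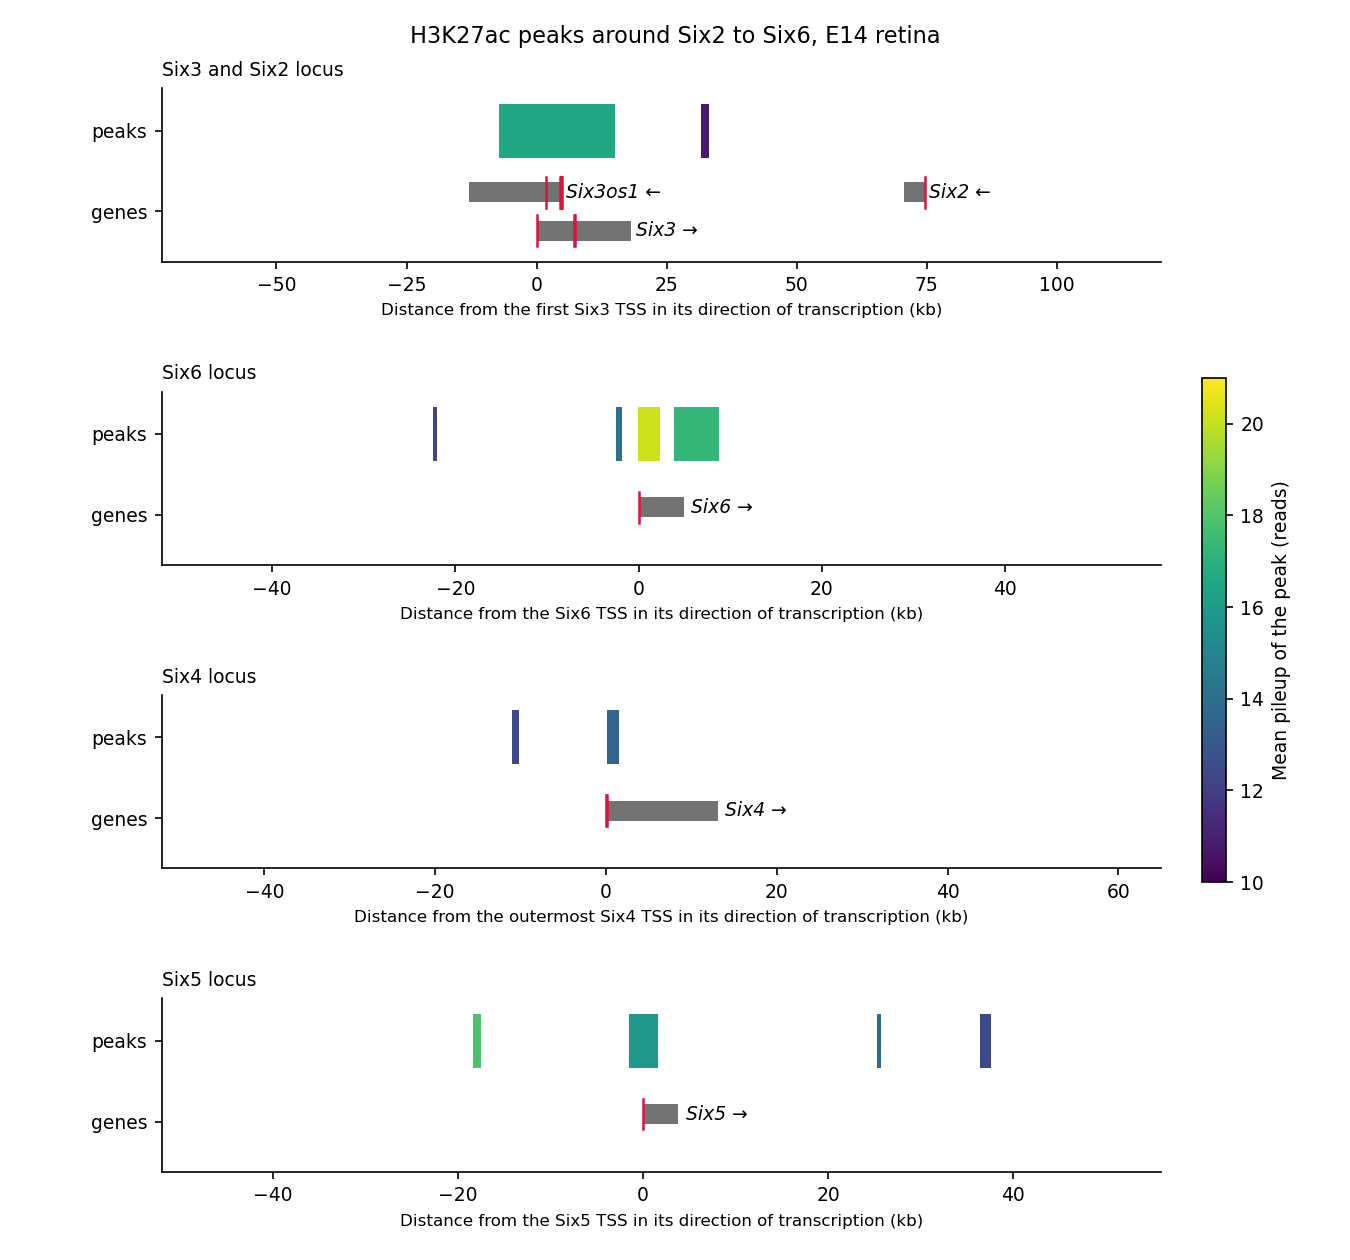
H3K27ac peaks (upper boxes, coloured by mean pileup in reads) and the member genes (grey boxes, crimson lines at annotated TSS, arrows for the direction of transcription), plotted by distance in kb from a TSS of the locus. The box of 22347 bp spans the start sites of Six3 and Six3os1, whereas no box lies at Six2.

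The peak list gives no value per replicate. For each peak it gives 1 length, 1 mean pileup (the number of overlapping extended reads, averaged over the peak after scaling to the control), 1 fold enrichment over the local background and 1 −log10 q value. The spread between the 2 replicates is thus unknown, and no difference between peaks can be set against it. Over the whole list, the median length was 1015 bp (range 313 to 32865 bp), the median pileup 15.1 reads and the median fold enrichment 4.46. High-confidence peaks, taken as those enriched 4-fold or more with q at or below 0.001, made up 64.1% of the list. In the broad mode of the caller, neighbouring enriched stretches are joined, so a long peak is not necessarily a single uninterrupted stretch of acetylated nucleosomes.

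At Six3 (ENSMUSG00000038805.7, chr17:86012948-86031153 on mm9, plus strand), the peak chr17:86005698-86028044 had a mean pileup of 16.6 reads, a fold enrichment of 4.72 and a −log10 q value of 5.81. It ranked 2 of 13463 by length but 5199 by pileup and 5559 by fold enrichment. It was thus 22.0 times as long as the median peak, with an average signal close to the median of the list. Only the peak of 32865 bp at Pax6 was longer, and the peak next in length measured 14441 bp. The peak contained all 3 annotated TSS of Six3, at positions 86012948, 86020183 and 86020371. It began 7250 bp upstream of the first of them and ended 7673 bp beyond the last. All 1071 coding bases of Six3 lay inside it, as did 82.9% of the gene body, while the last 3109 bp of the gene extended beyond it.

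Six3os1 (ENSMUSG00000056364.6, chr17:85999991-86017736, minus strand) overlaps the 5′ part of Six3 by 4789 bp, counted from the first Six3 TSS. The Six3 TSS at positions 86020183 and 86020371 lie outside this overlap, the last of them 2635 bp from the 5′ end of Six3os1. All 11 annotated TSS of Six3os1 lay in the same peak, together with 67.8% of its body. The last 5707 bp of Six3os1 lay outside the peak. Of the peak itself, 12392 bp fell on exons of these genes and 9955 bp on introns. The list gives a single set of values for the whole shared peak, so the acetylation of Six3 and that of Six3os1 cannot be told apart from it.

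The RefSeq promoter of Six3 lay deep inside this peak, and its sequence is shown because each of its bases was covered. The 250 bases upstream of the RefSeq start were located on mm9 at chr17:86019924-86020173 (plus strand), with capitals marking TAAT, the core of many homeodomain sites, and CCAAT, on either strand.
Six3 promoter: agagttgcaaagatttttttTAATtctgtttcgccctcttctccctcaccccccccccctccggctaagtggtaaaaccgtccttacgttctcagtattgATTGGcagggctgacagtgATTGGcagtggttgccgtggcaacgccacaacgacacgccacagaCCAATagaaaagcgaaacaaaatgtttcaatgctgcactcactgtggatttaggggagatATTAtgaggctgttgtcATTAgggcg
The run held 3 matches to TAAT and 3 to CCAAT and had a GC content of 48.8%. At least 1 TAAT was found in 54.8% and at least 1 CCAAT in 33.8% of 32536 mouse promoter windows of the same length, so the presence of either motif was common. TATAAA, present in 12.3% of all promoter windows, was not found in it on either strand. Nor were GGGCGG, present in 33.0% of windows, and the palindromic homeodomain motif TAATTA, present in 4.84%. Over the whole peak, the GC content was 52.6%, lower than the median of 60.2% over all peaks. TAAT occurred 96 times, or 4.30 times per kb, where the median peak had 1.98 per kb. TAATTA, which contains TAAT, occurred 3 times in the peak and at least once in 10.2% of all peaks, most of which are far shorter.

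Downstream of Six3, a second peak of 1495 bp (chr17:86044545-86046039) was separated from the long peak by 16500 bp. It was intergenic, 24.2 kb from the last Six3 TSS, and lay at no annotated TSS of a protein-coding, lincRNA or processed transcript gene. Its pileup of 10.8 reads was the lowest of the 12 peaks, its fold enrichment was 3.64 and its −log10 q value 2.39, and it was not a high-confidence peak. This peak lay in the windows of Six3, Six3os1 and Six2, and it was the only peak in the window of Six2. The 200-base stretch with the most TAAT matches in this peak is shown (mm9, chr17:86045156-86045355, plus strand, TAAT and its reverse complement in capitals), as part of the only called peak between Six3 and Six2.
Intergenic peak between Six3 and Six2: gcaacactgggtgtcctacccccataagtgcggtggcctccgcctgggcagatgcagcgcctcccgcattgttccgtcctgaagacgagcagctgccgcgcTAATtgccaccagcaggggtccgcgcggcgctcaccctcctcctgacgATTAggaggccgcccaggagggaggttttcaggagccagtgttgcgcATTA
The stretch held 3 matches, and the whole peak held 7, or 4.68 per kb.

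Six2 (ENSMUSG00000024134.9, chr17:86083608-86087594, minus strand) lies 52454 bp beyond the end of Six3 and is transcribed towards it. None of its 3987 bp lay in a peak. Its only window peak covered 1.44% of the window, and 49.3% of protein-coding genes had at most as many covered bp. The long Six3 peak ended 59550 bp from the Six2 TSS and lay outside the Six2 window, at a distance of 55.6 kb from the gene. For contrast with the acetylated Six3 promoter, the 250 bases upstream of the Six2 start (mm9, chr17:86087595-86087844, minus strand) are given with the same motifs in capitals.
Six2 promoter: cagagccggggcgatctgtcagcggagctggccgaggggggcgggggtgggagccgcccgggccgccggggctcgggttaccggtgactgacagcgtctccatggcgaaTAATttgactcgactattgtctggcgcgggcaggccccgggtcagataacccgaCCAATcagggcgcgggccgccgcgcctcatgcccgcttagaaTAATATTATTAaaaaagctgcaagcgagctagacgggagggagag
The Six2 promoter had a GC content of 64.8% and held 26 CpG dinucleotides, 4 matches to TAAT, 1 to CCAAT and 2 to GGGCGG, and 0 of its bases were in a peak. The Six3 promoter held 10 CpG dinucleotides and was in a peak throughout. The wholly covered promoters of Six3os1 and Six5 had GC contents of 66.0% and 62.8%. A relation of GC content to coverage was not tested.

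Six6 (ENSMUSG00000021099.3, chr12:74040932-74045886, plus strand) had the highest pileup of the family. The TSS peak chr12:74040897-74043291 reached a mean pileup of 20.2 reads, rank 2086 of the list, with a fold enrichment of 4.22 and a −log10 q value of 5.81. With 2395 bp it ranked 734 by length. The peak also lay at an annotated TSS of 4930447C04Rik, a gene on the opposite strand, so it cannot be assigned to Six6 alone. The peak was placed almost wholly on the transcribed side of the GENCODE start. It began 35 bp upstream of the annotated TSS and reached 2359 bp downstream of it. Over 26170 TSS of protein-coding genes that lie inside a peak, the median reach was 540.5 bp upstream and 638 bp downstream. Only 5.55% of these TSS had an upstream reach as short as that of Six6, and 98.3% had a downstream reach as short or shorter. The RefSeq start of Six6 lies further upstream, 28 bp outside the peak, so that 0 of the 250 bases upstream of it were covered, as for Six2.

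The second Six6 peak, chr12:74044784-74049735, was the longer of the pair at 4952 bp and ranked 59 of the list by length. Its pileup was 17.3 reads, its fold enrichment 4.74 and its −log10 q value 6.26. It started 3.85 kb downstream of the TSS, after a gap of 1492 bp from the TSS peak. It covered the last 1103 bp of the gene and continued for 3849 bp, 77.7% of its length, into intergenic sequence. No annotated TSS of a protein-coding, lincRNA or processed transcript gene lay within 1000 bp of it. The GC content of this peak was 47.7%, and 5.37% of all peaks were as low or lower. TAAT occurred 35 times in it, or 7.07 times per kb, a density that 93.0% of peaks did not exceed. TAATTA was found 1 time. The 200-base intergenic stretch richest in TAAT is shown for this feature (mm9, chr12:74049260-74049459, plus strand, TAAT and its reverse complement in capitals).
Peak 3′ of Six6: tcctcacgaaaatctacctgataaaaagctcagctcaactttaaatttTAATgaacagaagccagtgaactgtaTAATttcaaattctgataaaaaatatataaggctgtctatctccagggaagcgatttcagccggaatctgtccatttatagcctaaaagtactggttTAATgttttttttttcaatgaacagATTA
The stretch held 4 matches. A match to these letters describes the sequence only.

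The other peaks of the Six6 window were shorter. A peak of 595 bp, with a pileup of 14.1 reads and a fold enrichment of 4.39, lay 1.86 kb upstream of the TSS. A peak of 498 bp, with a pileup of 12.2 reads and a fold enrichment of 3.56, lay 22.0 kb upstream. Both lay at annotated TSS of 4930447C04Rik, a neighbouring gene that overlaps the Six6 start. In all, 4 peaks covered 8440 bp or 8.04% of the Six6 window, and 69.9% of the gene body was covered.

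Six4 (ENSMUSG00000034460.6, chr12:74201246-74214401, minus strand) had a TSS peak of 1484 bp, chr12:74212842-74214325. Its pileup was 13.6 reads, its fold enrichment 3.74 and its −log10 q value 3.23, so that it was the only TSS peak of the family below the high-confidence thresholds. By length it ranked 3208, by pileup 8216 and by fold enrichment 10337. Six4 has 2 annotated TSS, and the peak contained 1 of them, at position 74214232. It reached 93 bp upstream of this TSS and 1390 bp downstream, and thus ended short of the outer TSS at position 74214401. Six4 and Six6 had in common a TSS peak that lay mostly downstream of the start, while the Six5 peak reached 1497 bp upstream and 1659 bp downstream. The sequence upstream of the inner Six4 start (mm9, chr12:74214233-74214482, minus strand) is shown because the edge of the peak falls inside it: the last 93 of its 250 bases were in the peak.
Six4 promoter: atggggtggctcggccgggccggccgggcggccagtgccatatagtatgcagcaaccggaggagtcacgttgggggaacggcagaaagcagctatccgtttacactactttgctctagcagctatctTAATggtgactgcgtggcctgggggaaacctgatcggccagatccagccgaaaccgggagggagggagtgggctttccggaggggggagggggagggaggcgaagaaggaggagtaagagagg
It held 1 TAAT and 1 GGGCGG and no CCAAT. The remaining peak in the Six4 window, of 741 bp, was at the TSS of Mnat1, a subunit of the CDK-activating kinase, 10.2 kb upstream of Six4. It had the highest fold enrichment of the 12 peaks, 6.16, with a pileup of 12.5 reads.

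Six5 (ENSMUSG00000040841.4, chr7:19679893-19683694, plus strand) had a TSS peak of 3157 bp, chr7:19678396-19681552. The pileup of this peak was 15.8 reads, the fold enrichment 4.28 and the −log10 q value 4.79, and it ranked 298 by length. The peak also lay at an annotated TSS of Dmpk, which encodes a protein kinase and ends upstream of Six5, so that it cannot be assigned to Six5 alone. It covered 43.7% of the Six5 body and all 250 bases upstream of the Six5 start. The other 3 peaks of this gene-dense window were each at the TSS of another gene. A peak of 805 bp at Dmwd had the highest pileup of the window, 17.9 reads, with a fold enrichment of 5.45. The peaks at Fbxo46 measured 446 bp and 1161 bp, with pileups of 13.7 and 12.4 reads. All 4 peaks at the Six5 locus were high-confidence peaks.

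Across the family, 4 of the 12 peaks were at the TSS of a member, 6 only at the TSS of another gene, and 2 at no TSS of a protein-coding, lincRNA or processed transcript gene. Of all peaks of the list, 78.1% were at such a TSS, so the 10 of 12 here were close to the share of the list. The 2 peaks at no TSS were the peak 3′ of Six6 and the intergenic peak downstream of Six3. The 12 peaks had a median length of 1322.5 bp, a median pileup of 13.9 reads and a median fold enrichment of 4.39. Of them, 7 were longer than the median of the list, while 5 exceeded its median pileup and 5 its median fold enrichment. By pileup and fold enrichment the 12 peaks as a set did not stand above the medians of the list. High-confidence peaks were 9 of 12, or 75.0%, beside 64.1% of all peaks. The exceptions were the Six4 TSS peak, the intergenic peak downstream of Six3 and the 498 bp peak upstream of Six6. At a TSS, a high-confidence peak was found for 3 of the 5 protein-coding members (Six3, Six5 and Six6), where 37.8% of all protein-coding genes had such a peak.

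**Figure D2:**
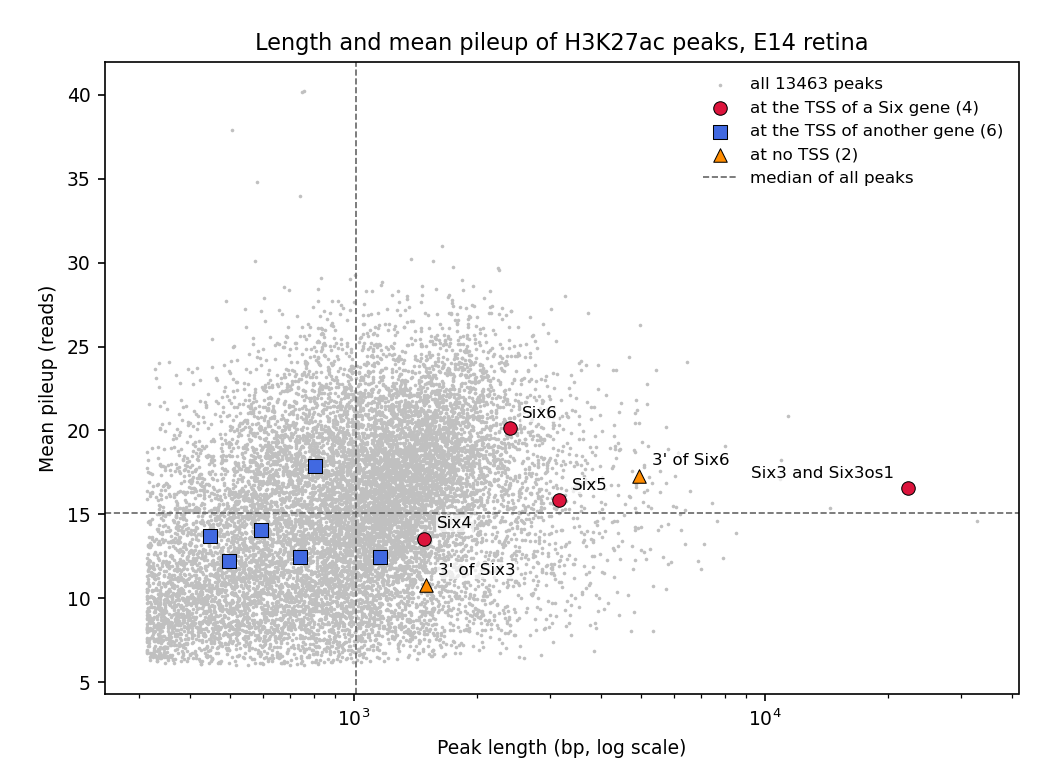
Length in bp (log scale) and mean pileup in reads of all 13463 peaks (grey) and of the 12 peaks in the member windows, with dashed lines at the medians of the list. The Six3 peak stands at the right edge in length but at 16.6 reads in pileup, whereas the Six6 TSS peak has the highest pileup of the family, 20.2 reads.

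Among the 11147 protein-coding genes with a TSS peak, the median of the longest such peak was 1137 bp. The share of these genes with a TSS peak as long or shorter was 99.99% for Six3, 97.7% for Six5, 93.8% for Six6 and 71.5% for Six4. In pileup, the corresponding shares were 50.3% for Six3, 43.2% for Six5, 80.1% for Six6 and 23.8% for Six4. In fold enrichment all 4 stood below the middle of these genes, with shares of 48.4% for Six3, 32.7% for Six5, 30.8% for Six6 and 15.2% for Six4. The order of the members by length was thus not their order by pileup, and Six4 was lowest in all 3 measures. Whether neighbours in these orders differ beyond replicate error cannot be said from a pooled list.

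The covered length around each gene depends on the number and the length of its peaks. The median protein-coding gene had 1 peak and 1527 bp of peak sequence in the same window. Six3 and Six3os1 had 2 peaks and 23842 bp, or 20.2% of the Six3 window. Including Six3, 7 protein-coding genes had as much. For Six6, with 8440 bp, 97.3% of protein-coding genes had as much or less, and for Six5, with 5569 bp, 91.0%. For Six4, with 2225 bp, this share was 62.2%, and for Six2, with 1495 bp, 49.3%. In number of peaks, Six5 and Six6 had 4 each, Six3, Six3os1 and Six4 had 2 each, and Six2 had 1. Of all protein-coding genes, 27.9% had no peak in this window. The Six5 total was made up of 3 peaks at the TSS of other genes and the peak shared with Dmpk.

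**Figure D3:**
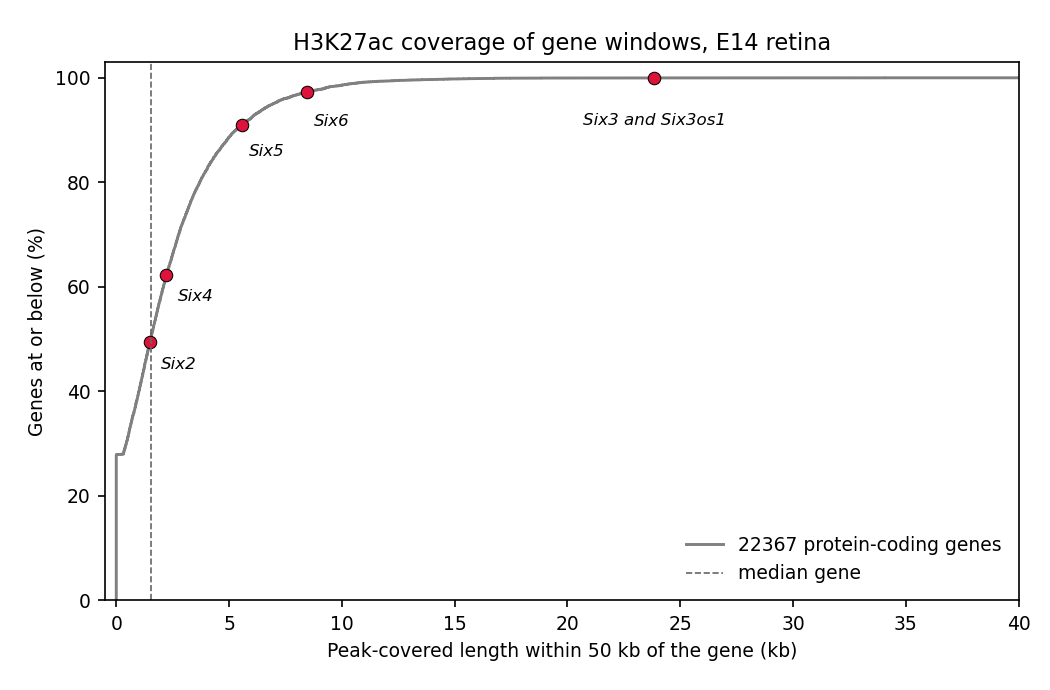
Cumulative share of protein-coding genes (percent) by the length in kb covered by peaks within 50 kb of the gene, with the members as crimson points and the median gene as a dashed line. Six2 and Six4 stand near the middle of the curve and Six3 with Six3os1, at 23842 bp, at its upper end.

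The window of 50 kb had few peaks near its limit. The farthest peaks inside were the intergenic peak, 37.6 kb from Six2, and the longer Fbxo46 peak, 32.7 kb from Six5. The nearest outside were a peak of 1554 bp at 50.5 kb from Six5, with a pileup of 13.8 reads, and the long Six3 peak at 55.6 kb from Six2. The nearest peak outside the Six6 window lay 85.5 kb upstream of the gene, and that outside the Six3 window 123.2 kb upstream.

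As background to these loci, the proteins were compared. From the annotated coding sequences, the SIX3 protein has 347 residues, SIX6 246, SIX2 296, SIX4 775 and SIX5 719. In a global alignment with free end gaps, 78.9% of the 246 aligned positions were identical between SIX3 and SIX6, the closest pair of the members. Residues opposite a gap were not counted. SIX2 shared 59.8% with SIX6 over 236 aligned positions and 55.2% with SIX3 over 261. SIX4 and SIX5 shared 39.9% over 642 aligned positions.

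SIX-family proteins act with partners, and the genes of 12 partners were counted in the same way. A TSS peak was present at 8 of 12 (66.7%), where 49.8% of all protein-coding genes had such a peak, and a high-confidence TSS peak at 7, where the share of all genes was 37.8%. The list was chosen with earlier results of these data known, so its counts are a description. Among the EYA coactivators, Eya1 and Eya3 had a TSS peak, of 913 bp and 1105 bp, and Eya2 and Eya4 had none. Among the DACH cofactors, Dach1 had a TSS peak of 3467 bp with a fold enrichment of 6.49, and Dach2 had none. Of the Groucho-type corepressor genes, Tle1, Tle3, Tle4 and the short family member Aes had TSS peaks and Tle2 had none. The longest was that of Tle3, 3938 bp with a pileup of 22.5 reads. Gmnn, which encodes geminin, a replication licensing inhibitor known to bind SIX3, had a TSS peak of 775 bp. The long peak of Six3 exceeded every TSS peak of these partners.

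Of 13 genes of the eye field and of retinal progenitors, 13 had a TSS peak (49.8% of all protein-coding genes), and 10 had a high-confidence TSS peak (37.8% of all genes). A further gene of this list is not reported here, and the list too was chosen with earlier results known. The median length of their longest TSS peaks was 4842 bp. The Six3 peak was longer than that of all of them but Pax6, with the next, Meis1, at 14441 bp. The Six6 TSS peak, at 2395 bp, was shorter than this median, and so were those of Six5 and Six4. In pileup the Six6 TSS peak, 20.2 reads, was second to that of Mab21l2, 20.5 reads, among these genes. Pax6 itself had a pileup of 14.6 reads and a fold enrichment of 4.44, so that its peak, like that of Six3, was long with an average signal near the median of the list.

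Marker genes of cell types were counted in the same way, to be read beside the 49.8% of all protein-coding genes with a TSS peak. These lists too were chosen with earlier results known. The progenitor markers are all in the eye field and progenitor list above, so their count repeats a part of that count. Otx2 is both in that list and among the photoreceptor markers. All 7 progenitor markers used, among them Pax6, Rax and Lhx2, had a TSS peak, and so had 6 of 7 markers of retinal ganglion cells, all but Gap43. Markers of amacrine and horizontal cells had a TSS peak in 3 of 6 and photoreceptor markers in 2 of 5, close to the share of all genes. Of the markers of pigment epithelium, 1 of 5 (Pmel) had a TSS peak, which did not reach into the gene body, and of those of endothelium 1 of 4 (Kdr). None of 5 lens, 7 mesenchyme and muscle, and 4 microglia and blood markers had a TSS peak. High-confidence TSS peaks, present at 37.8% of all protein-coding genes, were found at 6 of the 7 progenitor, 4 of the 7 ganglion cell, 1 of the 6 amacrine and horizontal and 2 of the 5 photoreceptor markers, and at 0 of the pigment epithelium and endothelium markers. Peaks were thus present at progenitor genes and also at genes of ganglion cells, which the whole retina contains at this age. The part of each cell type in the peaks at the members was not tested, and fewer cells with the mark cannot be told apart from less of the mark per cell.

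**Figure D4:**
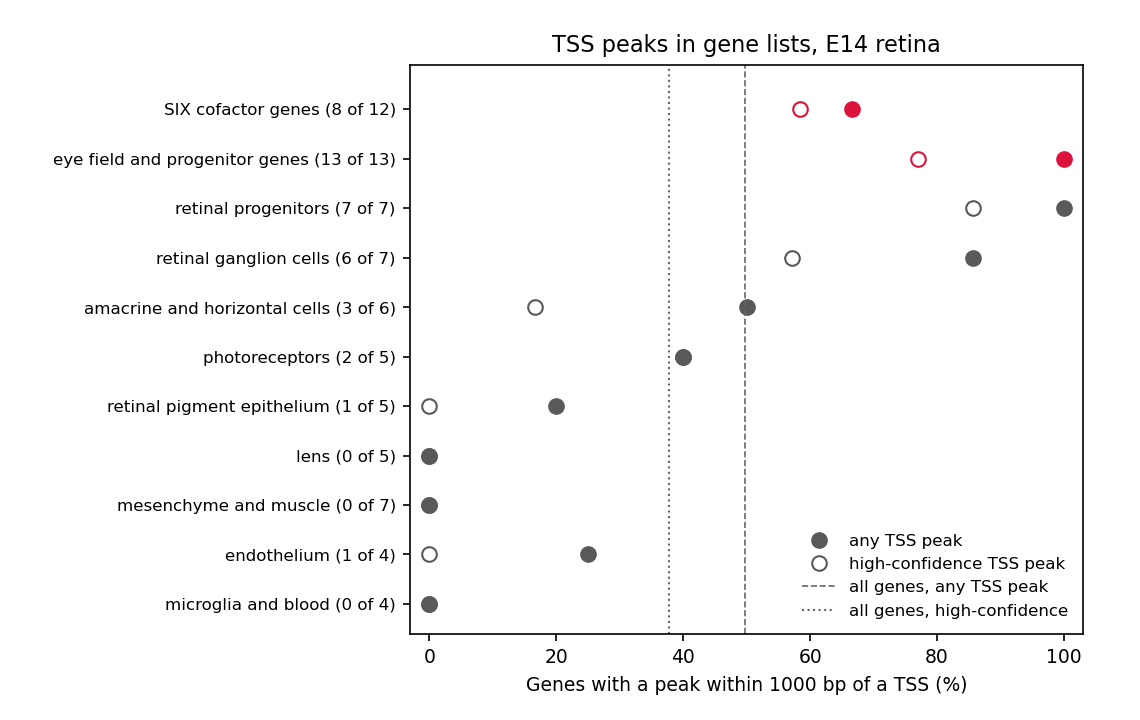
Share of genes in each list with a peak within 1000 bp of a TSS (filled points, percent) or a high-confidence peak there (open points, hidden where the shares are equal), with the share of all protein-coding genes with any TSS peak, 49.8%, as a dashed line and with a high-confidence TSS peak, 37.8%, as a dotted line. A TSS peak was present at 8 of 12 genes of SIX-family cofactors and at 13 of 13 eye field and progenitor genes. Lists were chosen with earlier results known.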

How the data were processed

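The E14 H3K27ac ChIP-Seq peak list, for which the labels name 2 replicates and 1 isotype library, was analysed. Per the methods, the authors aligned reads to mm9 with Bowtie2. Per the file headers, broad peaks were called with MACS 2.1.0.20140616 (broad cutoff 0.1, q cutoff 0.05) from a single ChIP alignment, and 113543038 ChIP tags and 9210563 control tags remained after filtering. The pileup deposited by the authors is a coverage signal averaged over each peak and scaled to the shallower library. The deposited fold enrichment is a ratio to the local background, and the −log10 p and −log10 q values deposited by the authors are averages over the peak. The control limits the precision of fold enrichment, and the list gives no counts from which an interval could be made.

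Peaks were matched to GENCODE vM1 genes on mm9 (at least 1 bp of overlap). A TSS peak overlapped the 1000 bp on either side of an annotated TSS. Ranks are among all peaks, with rank 1 the highest, and shares are of all protein-coding genes. Promoters came from RefSeq (GRCm38.p6) and were located in mm9 by exact match, without conversion of coordinates. All 6 members matched. Residue identity was computed from translated GENCODE coding sequences. Text was limited by rule to the members, every peak in their windows, genes with a TSS at such a peak, and the gene lists. A gene of the eye field and progenitor marker lists is not reported here and was left out of their counts. Members and lists were chosen with earlier results of these data known. A few partner and eye field genes beyond those without a TSS peak or with the longest one were named after their values were seen. Interval operations were tested on simulated data. Python 3.11.15, numpy 2.4.6, pandas 2.3.3 and Biopython 1.88 were used. Alternatives changed the window, the peak threshold, the TSS definition and the merging of peaks.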

Additional observations from a re-analysis of the deposited data

How the results depend on the processing

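The 12 peaks around the members became 9 with windows of 20 kb, 18 with windows of 100 kb and 9 with high-confidence peaks, and stayed 12 when midpoints were required inside the window. Merging peaks within 1 kb of each other joined none of the 13463 peaks, so it bears on no result. The covered length ranged from 36599 to 47367 bp around 40076 bp. A TSS peak was present at 5 members under each TSS definition tried and at 4 with high-confidence peaks, where Six4 had none. The partner genes with a TSS peak were 7 or 8 and the eye field genes 10 to 13 under these settings. The Six3 peak kept its length of 22347 bp and its rank of 2 by length among high-confidence peaks, and also had rank 2 by length times pileup. By fold enrichment its rank was 5559. Single windows were less stable, and 9 of 30 counts per gene, those after merging included, moved by over 1.5 times. Six2 had no peak left with windows of 20 kb or with high-confidence peaks. No paired analysis was possible because the list holds a single set of peaks, and for the same reason neither replicate could be left out.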
